A study of Homo sapiens with 24 samples.

Results

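The miR-34 family is represented by 6 mature miRNAs, the 5p and 3p arms of miR-34a, miR-34b and miR-34c. They were chosen by position, as the rows of both arms of miR-34a on chromosome 1 and of miR-34b and miR-34c on chromosome 11, and are 6 of the 2652 mature miRNAs counted. Of the 6, 5 passed the filter on low counts, against 626 of all mature miRNAs, and miR-34c-3p did not.

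Small RNA was sequenced from SBC-3, a human small cell lung cancer line labelled wild type, harvested 72 h after reverse transfection with 10 nM of oligonucleotide. There were 8 groups of 3 libraries. The small interfering RNA (siRNA) groups were the control siCtrl, siSFPQ-2 with siSFPQ-3 for the protein SFPQ, and siNONO-3 with siNONO-4 for the protein NONO. The antisense oligonucleotide (ASO) groups were the control ASO-Ctrl and, for the long non-coding RNA NEAT1, ASO-NEAT1-1047 and ASO-NEAT1-1473. All groups thus share the line, the dose, the time and a transfection, and untransfected cells are not part of the comparisons. Nothing in the labels says that the 3 libraries of a group came from separate cultures, so p-values measure the spread between these libraries. The question was how loss of SFPQ and its partners changes miRNA levels.

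miR-34 miRNAs restrain cell cycle and survival genes and are known as tumour suppressors. miR-34a has its own host transcript, whereas miR-34b and miR-34c are cut from a shared primary transcript, which is best known from ciliated airway epithelium. A miRNA chooses its targets mainly through the seed, bases 2 to 8 from its 5′ end, and of the arms of a hairpin 1 is usually loaded as the guide while the other is degraded. SFPQ and NONO are related RNA- and DNA-binding proteins that form heterodimers and, with NEAT1 as the scaffold, build the nuclear bodies called paraspeckles. The tables hold mature miRNAs and spike-ins, so the levels of SFPQ, NONO and NEAT1 were not analysed here.

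The sequences below, from RefSeq (GRCh38.p14), show which family members and relatives share a seed, printed in capitals. Sequences were matched for 5 of the 6 members, all but miR-34c-5p.
miR-34a-5p: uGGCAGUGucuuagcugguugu
miR-449a: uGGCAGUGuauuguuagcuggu
miR-34b-5p: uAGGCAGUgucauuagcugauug
miR-449c-5p: uAGGCAGUguauugcuagcggcugu
miR-34a-3p: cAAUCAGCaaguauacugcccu
miR-34b-3p: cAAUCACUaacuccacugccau
miR-34c-3p: aAUCACUAaccacacggccagg
Among the matched sequences, which leave out miR-34c-5p, the seed GGCAGUG was shared by 3 mature miRNAs, miR-34a-5p, miR-449a and miR-449b-5p. The seed AGGCAGU, which has the stretch GGCAGU in common with GGCAGUG but moved by 1 base, was shared by miR-34b-5p, miR-449c-5p and miR-2682-5p. The seeds of the 3p arms printed here were each found in 1 mature miRNA.

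In hg38 the miR-34a arms lie on the minus strand of chromosome 1, miR-34a-5p (MIMAT0000255) at chr1:9151735-9151756 and miR-34a-3p (MIMAT0004557) at chr1:9151693-9151714. Both are exonic, in exon 2 of the long non-coding RNA gene MIR34AHG (GENCODE 29). On the plus strand of chromosome 11, miR-34b-5p (MIMAT0000685) lies at chr11:111512950-111512972, miR-34b-3p (MIMAT0004676) at chr11:111512987-111513008, miR-34c-5p (MIMAT0000686) at chr11:111513451-111513473 and miR-34c-3p (MIMAT0004677) at chr11:111513484-111513505. The RefSeq gene MIR34BHG (chr11:111510602-111513888) spans both of these hairpins, which are 417 bases apart.

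The libraries held 2038382 to 4279644 miRNA counts. Levels are given as CPM, the counts scaled to a common library size after trimmed mean of M-values (TMM) normalisation. The neural and neuroendocrine markers miR-9-5p (46767 to 106856 CPM) and miR-7-5p (6849 to 19907 CPM) were abundant in every library. miR-375-3p, another neuroendocrine marker, was at 0.257 to 8.55 CPM, and the neuronal miR-124-3p had 0 to 5 counts. The ciliated cell markers outside the family, miR-449a, miR-449b-5p and miR-449c-5p, summed to 1.03 to 7.29 CPM. The fibroblast and smooth muscle marker miR-199a-3p was also abundant, at 23330 to 49210 CPM. Of the muscle markers, miR-1-3p was at 78.0 to 552.5 CPM, miR-133a-3p at 18.4 to 108.8 and miR-206 at 2.47 to 8.78. The blood cell marker miR-142-3p was at 23.5 to 151.5 CPM and miR-142-5p at 2.25 to 19.4. The other blood cell markers were near 0, miR-223-3p with 0 to 2 counts, miR-451a with 0 to 3 and miR-144-3p with 0 to 4. The liver marker miR-122-5p was at 0 in all 24 libraries.

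Nearly all family counts came from a single arm. miR-34a-5p, the guide of miR-34a and the member studied as a tumour suppressor mimic, made up 97.0% to 99.2% of the family's counts in the 24 libraries. It ranked between 30 and 60 among all miRNAs by counts. The family as a whole took 0.231% to 0.961% of a library's miRNA counts, with the lowest share in a siCtrl library and the highest in a siNONO-3 library. miR-34b-5p and miR-34c-5p together were 0.389% to 2.40% of the family. Counts of mature miRNAs of nearly the same length are compared here, and differences in ligation between them were not measured.

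miR-34a-5p was highest in the NONO knockdowns. Its level was 2688, 3282 and 3761 CPM in siCtrl replicates 1 to 3. In siNONO-3 it was 8790, 8120 and 10210 CPM, and in siNONO-4 it was 5389, 5765 and 6375 CPM. All libraries of both NONO groups lay above all siCtrl libraries, and the NONO groups did not overlap each other.

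In siSFPQ-2 miR-34a-5p was at 3203, 3050 and 2866 CPM, and in siSFPQ-3 at 1699, 2481 and 1953 CPM. The siSFPQ-2 libraries lay within the siCtrl range, and the siSFPQ-3 libraries all lay below it. In the ASO groups the level was 4260, 3805 and 4101 CPM in ASO-Ctrl, 4456, 3777 and 3311 CPM in ASO-NEAT1-1047, and 3577, 3710 and 3515 CPM in ASO-NEAT1-1473. The ASO-Ctrl libraries all lay above siCtrl, and both NEAT1 groups overlapped siCtrl.

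miR-34b-5p, the 5p arm of the first hairpin of the shared transcript, was low in siCtrl, at 6.75, 5.65 and 3.85 CPM from 18, 17 and 7 counts. In siNONO-3 it reached 61.4, 52.5 and 69.1 CPM, and in siNONO-4 it was at 30.3, 30.3 and 30.9 CPM. The NONO groups stood above every other library and apart from each other. It was at 6.04, 4.42 and 4.39 CPM in siSFPQ-2 and at 2.26, 5.26 and 3.10 CPM in siSFPQ-3, ranges that overlap siCtrl. In ASO-Ctrl it was at 17.2, 11.6 and 16.8 CPM, in ASO-NEAT1-1047 at 13.9, 10.999 and 19.6 CPM, and in ASO-NEAT1-1473 at 13.5, 11.2 and 18.5 CPM. The 3 ASO groups overlapped each other and lay between the siRNA groups without NONO siRNA and the NONO groups.

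miR-34c-5p, the 5p arm of the second hairpin, had the same order of groups. It was at 14.99, 9.63 and 12.7 CPM in siCtrl, from 40, 29 and 23 counts. In siNONO-3 it was at 142.7, 117.8 and 183.7 CPM, and in siNONO-4 at 70.1, 72.3 and 88.6 CPM. No NONO library overlapped any library of the other groups. In siSFPQ-2 it was at 13.3, 7.57 and 15.7 CPM and in siSFPQ-3 at 9.73, 12.5 and 9.05 CPM, both overlapping siCtrl. In ASO-Ctrl it was at 30.8, 34.1 and 49.1 CPM, in ASO-NEAT1-1047 at 29.7, 25.1 and 43.3 CPM, and in ASO-NEAT1-1473 at 23.1, 23.9 and 35.1 CPM. These ASO libraries all lay above the siCtrl libraries and overlapped each other.

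**Figure D1:**
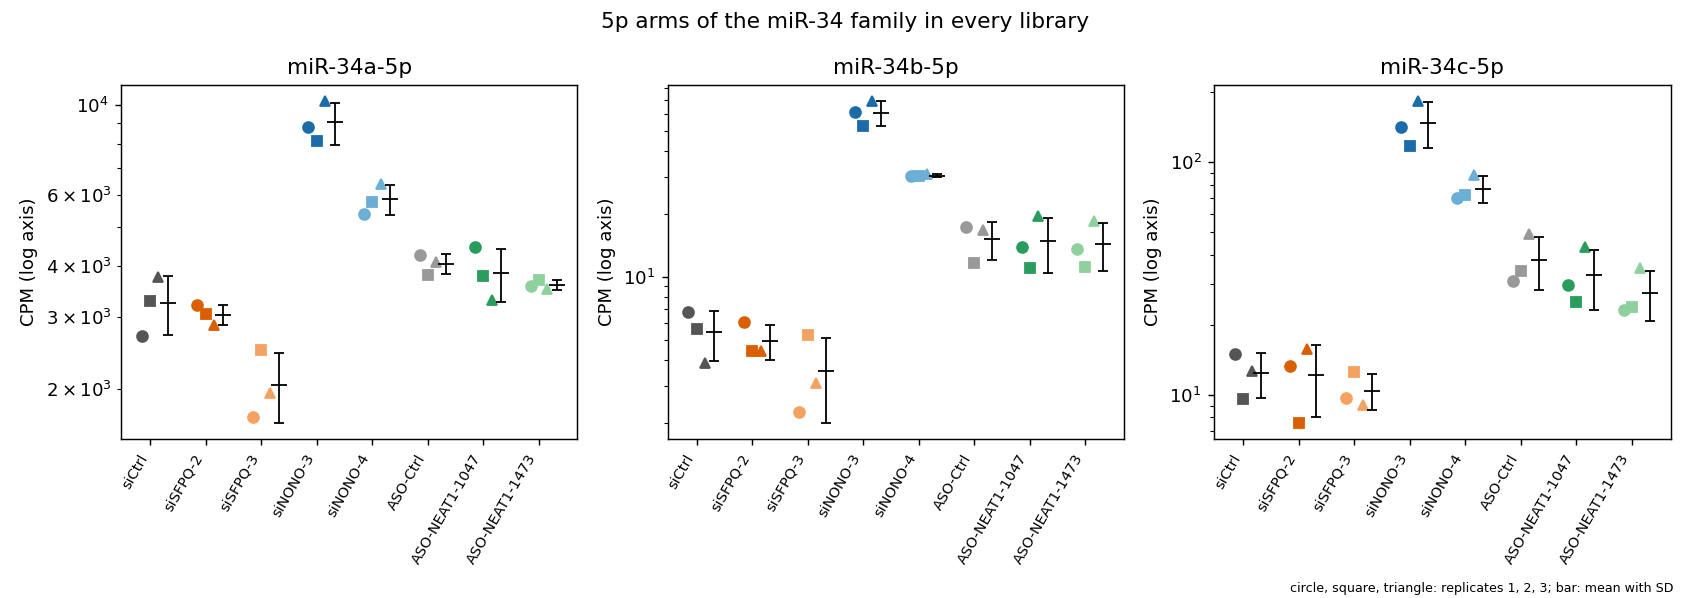
CPM (log axis) of miR-34a-5p, miR-34b-5p and miR-34c-5p in each of the 24 libraries by group, with symbols for the replicates and a bar for the mean with SD. The siNONO-3 and siNONO-4 libraries sit above all others in each panel, and the ASO libraries sit above siCtrl for miR-34b-5p and miR-34c-5p.

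For all 3 of these 5p arms, ordering the groups by mean CPM gave siSFPQ-3, siSFPQ-2, siCtrl, ASO-NEAT1-1473, ASO-NEAT1-1047, ASO-Ctrl, siNONO-4 and siNONO-3. For miR-34b-5p and miR-34c-5p, neighbours in this order overlapped except between siCtrl and ASO-NEAT1-1473, between ASO-Ctrl and siNONO-4, and between siNONO-4 and siNONO-3. For miR-34a-5p the gap was between siSFPQ-3 and siSFPQ-2 instead of above siCtrl, beside those on either side of siNONO-4.

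The 3p arms, usually the passenger strands, were low. miR-34a-3p ranged from a group mean of 11.8 ± 1.383 CPM (SD, n = 3) in siSFPQ-3 to 47.2 ± 5.06 in siNONO-3, with 16.2 ± 4.72 in siCtrl and 27.4 ± 4.39 in siNONO-4. All 6 NONO libraries exceeded the 3 siCtrl libraries. miR-34b-3p had 5, 2 and 2 counts in siCtrl, 25, 12 and 27 in siNONO-3 and 10, 17 and 12 in siNONO-4. It reached the filter's cutoff of 3.14 CPM in 5 NONO libraries and in 3 of the other 18, so most libraries past the cutoff were NONO libraries. The filter asks for as many libraries as a group holds, which those outside the NONO groups also reached. miR-34c-3p had 1, 0 and 0 counts in siCtrl, 10, 6 and 7 in siNONO-3, and 3, 5 and 3 in siNONO-4.

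Of the 5 tested members, 4 were called higher after NONO knockdown, where 0.958% of the tested miRNAs were called higher (6 of 626). Averaged over both siRNAs against siCtrl, miR-34c-5p was 8.60-fold higher (log2 fold change 3.10 ± 0.29 SE, 6 libraries against 3, adjusted p = 9.56e-08, quasi-likelihood test of edgeR, Benjamini-Hochberg adjusted over 626 miRNAs). The other 5p arm of the shared transcript, miR-34b-5p, was 7.77-fold higher (2.96 ± 0.29, adjusted p = 1.52e-07). The abundant guide miR-34a-5p was 2.24-fold higher (1.16 ± 0.15, adjusted p = 1.43e-05). These were the 3 smallest p-values among the 626 miRNAs. The minor arm miR-34a-3p rose by 1.15 ± 0.24 (log2, adjusted p = 0.00860). For miR-34b-3p the log2 fold change was 2.10 ± 0.59 and did not pass (adjusted p = 0.0742), although all 6 NONO libraries were above siCtrl.

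After NONO knockdown the median log2 fold change was 2.10 over the 5 tested members and 0.01 over all tested miRNAs. The value of 2.10 is that of miR-34b-3p, which did not pass. The miR-34a arms lay at 1.15 and 1.16, and miR-34b-5p and miR-34c-5p at 2.96 and 3.10. For each of the 6 members all 6 NONO libraries lay above all siCtrl libraries, which was so for 3.99% of tested miRNAs. miR-34c-3p was not tested, and its 34 counts in 6 NONO libraries against 1 in 3 siCtrl libraries give a ratio of 13.4 after allowing for depth (95% exact counting interval 2.25 to 545). In bulk RNA, a higher level in each cell and a larger share of cells with the miRNA cannot be told apart.

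The calls of the 3 5p arms held under all 19 alternative analyses, with log2 fold changes of 0.98 to 1.26 for miR-34a-5p, 2.74 to 3.07 for miR-34b-5p and 2.90 to 3.22 for miR-34c-5p. On library totals the median of all tested miRNAs moved from 0.01 to 0.12, and miR-34a-5p was then at 1.26. The miR-34a-3p call was lost in 4 of 19: on spike-in totals (1.05, adjusted p = 0.0809), with only the compared groups in the fit (1.17, adjusted p = 0.0610), without siCtrl replicate 1 (0.95, adjusted p = 0.0748) and without siCtrl replicate 3 (1.00, adjusted p = 0.150). miR-34b-3p passed in 5 of 18, DESeq2 among them (2.08, adjusted p = 0.0407), and without siNONO-4 replicate 1 (2.19, adjusted p = 0.0449).

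**Figure D2:**
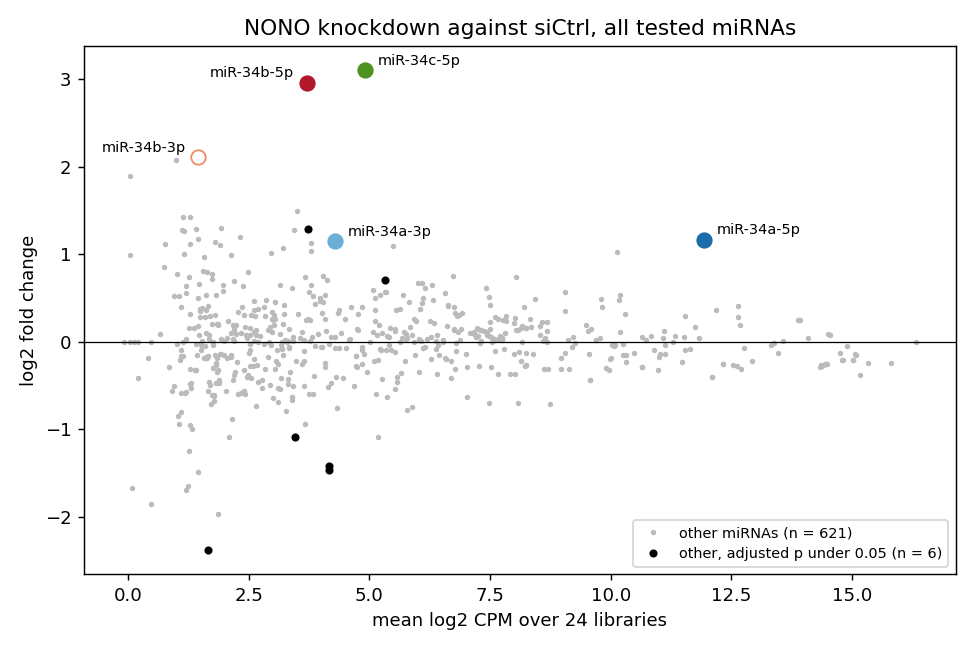
Log2 fold change after NONO knockdown against siCtrl (vertical axis) by mean log2 CPM over the 24 libraries (horizontal axis) for the 626 tested miRNAs, grey for miRNAs outside the family, black for those outside it past the threshold, and coloured for the miR-34 arms (open where not past it). miR-34c-5p at 3.10 and miR-34b-5p at 2.96 have the highest values, and miR-34a-5p stands at 1.16 among abundant miRNAs.

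Both siRNAs against NONO gave higher levels. With siNONO-3, 5 members were called higher, against 1.92% of all tested miRNAs, at log2 fold changes of 3.58 for miR-34c-5p, 3.46 for miR-34b-5p, 1.48 for miR-34a-5p, 1.54 for miR-34a-3p and 2.56 for miR-34b-3p (adjusted p = 0.0272 for the last). With siNONO-4, the 3 5p arms were called, against 0.799%, at 2.63 for miR-34c-5p, 2.46 for miR-34b-5p and 0.85 for miR-34a-5p (adjusted p = 0.00671 for the last). miR-34a-3p (0.75, adjusted p = 0.248) and miR-34b-3p (1.65, adjusted p = 0.346) did not pass with siNONO-4.

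Some of these single-siRNA calls depended on the fit. With siNONO-3, the miR-34b-3p call was lost with only the compared groups in the fit (adjusted p = 0.0692), without siCtrl replicate 2 (adjusted p = 0.140) or 3 (adjusted p = 0.0709) and without siNONO-3 replicate 3 (adjusted p = 0.127), and the miR-34a-3p call with only the compared groups (adjusted p = 0.0692). With siNONO-4, the miR-34a-5p call was lost on spike-in totals (0.74, adjusted p = 0.408), at a mean of at least 10 CPM (0.73, adjusted p = 0.0509) and with only the compared groups (0.78, adjusted p = 0.789). It was also lost without siCtrl replicate 1 (adjusted p = 0.0607), siCtrl replicate 2 (adjusted p = 0.0667) or siNONO-4 replicate 3 (adjusted p = 0.159).

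Set directly against siNONO-3, siNONO-4 had log2 differences of -0.63 for miR-34a-5p, -1.002 for miR-34b-5p and -0.95 for miR-34c-5p, with adjusted p of 0.112, 0.112 and 0.160. edgeR called 0 of the 5 tested members in that comparison (0% of all miRNAs), 4 had an unadjusted p under 0.05 and DESeq2 called 2. Over all 626 tested miRNAs, 38 had an unadjusted p under 0.05, and DESeq2 called 4 higher and 3 lower.

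The control ASO itself differed from the control siRNA at this family. miR-34c-5p was higher in ASO-Ctrl than in siCtrl by 1.61 ± 0.30 (log2, 3 libraries against 3, adjusted p = 0.0103) and miR-34b-5p by 1.46 ± 0.31 (adjusted p = 0.0229). They were 2 of the 3 miRNAs called between the controls (0.479% of 626). miR-34a-5p had a log2 difference of 0.32 ± 0.16 (adjusted p = 0.682, approximate 95% interval -0.02 to 0.66), miR-34a-3p of 0.02 and miR-34b-3p of 0.83, none past the threshold. The direction for miR-34a-3p turned under 5 alternatives and with single libraries left out, RLE size factors among them (-0.037). The kind of oligonucleotide and its sequence both differ between these controls, and their parts cannot be told apart.

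Single libraries moved these calls. Without ASO-Ctrl replicate 1 only miR-34c-5p passed, with miR-34b-5p at 1.24 (adjusted p = 0.106). Without siCtrl replicate 2, siCtrl replicate 3 or ASO-Ctrl replicate 3, neither passed, with miR-34c-5p at 1.42 (adjusted p = 0.162), 1.56 (adjusted p = 0.0550) and 1.36 (adjusted p = 0.0503).

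Because the controls differed, NONO knockdown was also set against ASO-Ctrl, a comparison added after the data were seen and between oligonucleotides of different kinds. miR-34b-5p was then higher by 1.502 ± 0.25 and miR-34c-5p by 1.49 ± 0.25 (adjusted p = 0.00135 for each), about 2.83-fold and 2.81-fold. The change in miR-34a-5p was 0.84 ± 0.15 (adjusted p = 0.00166) and that in miR-34a-3p 1.12 ± 0.23 (adjusted p = 0.00832). These 4 members passed, against 0.958% of all miRNAs called higher, and miR-34b-3p did not (1.28, adjusted p = 0.348). On spike-in totals miR-34a-5p (0.73, adjusted p = 0.106) and miR-34a-3p (1.02, adjusted p = 0.0600) no longer passed. Without ASO-Ctrl replicate 2 both were lost as well (adjusted p = 0.0590 and 0.176), and miR-34a-3p also without ASO-Ctrl replicate 3 (0.92, adjusted p = 0.179). With siNONO-3 alone those 4 members were called, against 0.799%.

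With siNONO-4 alone against ASO-Ctrl, edgeR called 0 of 5 tested members, where 0.479% of all miRNAs were called higher. miR-34b-5p was at 1.00 and miR-34c-5p at 1.02 (adjusted p = 0.0979 for each), and miR-34a-5p at 0.53 (adjusted p = 0.205). Of the 5, 4 had an unadjusted p under 0.05 and DESeq2 called 3. Over all 626 tested miRNAs, 43 had an unadjusted p under 0.05, and DESeq2 called 11 higher and 1 lower. Same-numbered libraries of these 2 groups deviated together, and with the replicate block miR-34c-5p was called (1.04, adjusted p = 0.0147), with 6 miRNAs higher in all instead of 3. It was also called with RLE (adjusted p = 0.0464), on library totals (adjusted p = 0.0179) and at a mean of at least 10 CPM (adjusted p = 0.0315), and miR-34b-5p on library totals (adjusted p = 0.0321). All 3 siNONO-4 libraries lay above all ASO-Ctrl libraries for miR-34a-5p, miR-34b-5p and miR-34c-5p. How many of all tested miRNAs were separated in this way was not computed.

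No tested member passed after NEAT1 knockdown. Against ASO-Ctrl the log2 fold changes were -0.12 ± 0.14 for miR-34a-5p (approximate 95% interval -0.42 to 0.17), -0.05 ± 0.24 for miR-34b-5p (-0.55 to 0.45) and -0.34 ± 0.24 for miR-34c-5p (-0.83 to 0.15). miR-34a-3p had a value of 0.05 and miR-34b-3p of -0.30. edgeR called 0 of the 5 tested members, 0 had an unadjusted p under 0.05 and DESeq2 called 0, with 0% of all 626 miRNAs called. Neither ASO alone gave a call, nor did ASO-NEAT1-1473 against ASO-NEAT1-1047, by edgeR or DESeq2 (0 of 5 with an unadjusted p under 0.05 in each).

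With siCtrl as the reference, added after the data were seen, the same NEAT1 libraries had miR-34b-5p higher by 1.40 ± 0.29 (adjusted p = 0.0188) and miR-34c-5p by 1.27 ± 0.27 (adjusted p = 0.0208), 2 of the 2 miRNAs called higher (0.319%). miR-34a-5p was at 0.20 ± 0.14 (adjusted p = 0.969). Both calls were lost on spike-in totals (adjusted p = 0.113 each), with glmTreat (adjusted p = 0.0754 each) and with only the compared groups (adjusted p = 0.176 each), and that of miR-34b-5p with no filter (adjusted p = 0.0671). Both were also lost without siCtrl replicate 2 (adjusted p = 0.249 for miR-34b-5p) or 3 (adjusted p = 0.168 and 0.147), ASO-NEAT1-1047 replicate 3 (adjusted p = 0.0512 each) or ASO-NEAT1-1473 replicate 3 (adjusted p = 0.0646 each).

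After SFPQ knockdown 1 member was called. miR-34a-5p fell by 0.38 ± 0.14 on the log2 scale (adjusted p = 0.0284), the only call among the 5 tested members, where 48.2% of all tested miRNAs were called and 22.7% were called lower. The values for miR-34a-3p (-0.28, adjusted p = 0.348), miR-34b-5p (-0.39, adjusted p = 0.306), miR-34b-3p (0.38, adjusted p = 0.678) and miR-34c-5p (-0.14, adjusted p = 0.702) did not pass. With siSFPQ-3 miR-34a-5p fell by 0.67 ± 0.16 (adjusted p = 0.00241), where 21.7% of all miRNAs were lower, and with siSFPQ-2 it was at -0.09 ± 0.16 (adjusted p = 0.687), where 38.7% were called in all. The difference between these siRNAs was -0.57 ± 0.16 (adjusted p = 0.180), in a comparison with 0.639% of all miRNAs called.

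The SFPQ result depended on the scaling and on single libraries. On library totals the median of all tested miRNAs was 0.47 instead of 0.02, miR-34a-5p was at 0.06 (adjusted p = 0.761), and the miR-34a-3p, miR-34b-5p and miR-34c-5p values also turned above 0. On spike-in totals miR-34a-5p was at -0.21 (adjusted p = 0.460). With siSFPQ-3 alone it was at -0.16 on library totals (adjusted p = 0.478), -0.22 on spike-in totals (adjusted p = 0.496) and -0.61 with only the compared groups in the fit (adjusted p = 0.0828), none past the threshold. The call was also lost without siCtrl replicate 2 (-0.37, adjusted p = 0.106), siCtrl replicate 3 (-0.29, adjusted p = 0.183), siSFPQ-2 replicate 3 (-0.34, adjusted p = 0.0922), siSFPQ-3 replicate 1 (-0.33, adjusted p = 0.0849) or siSFPQ-3 replicate 3 (-0.34, adjusted p = 0.0814).

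The SFPQ, NONO and control comparisons share the siCtrl libraries, so their values are not independent of each other. Set directly against NONO knockdown, without siCtrl, SFPQ knockdown had lower levels of all 5 tested members, with log2 differences of -1.54 for miR-34a-5p, -1.43 for miR-34a-3p, -3.35 for miR-34b-5p, -1.73 for miR-34b-3p and -3.24 for miR-34c-5p. The adjusted p ran from 1.11e-11 for miR-34b-5p to 0.000986 for miR-34b-3p. In this comparison 56.5% of all miRNAs were called and 26.8% were called lower. With ASO-Ctrl as the reference, added later, SFPQ knockdown was lower in 3 members, miR-34b-5p (log2 difference -1.85 ± 0.25), miR-34c-5p (-1.75 ± 0.24) and miR-34a-5p (-0.70 ± 0.14), where 23.6% of all miRNAs were lower. On library totals the miR-34a-5p difference was -0.28 and did not pass (adjusted p = 0.108).

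The NONO effect, against siCtrl, also differed from the NEAT1 effect, against ASO-Ctrl. The difference of the log2 fold changes was 3.45 ± 0.36 for miR-34c-5p (adjusted p = 1.01e-06), 3.01 ± 0.37 for miR-34b-5p (adjusted p = 9.10e-06) and 1.29 ± 0.20 for miR-34a-5p (adjusted p = 0.000336), 3 of the 6 miRNAs with a higher call (0.958%). miR-34a-3p (1.09, adjusted p = 0.120) and miR-34b-3p (2.40, adjusted p = 0.192) did not pass. On spike-in totals the miR-34a-5p difference was 1.17 and no longer passed (adjusted p = 0.0756), and without ASO-NEAT1-1047 replicate 3 that of miR-34b-3p passed (3.003, adjusted p = 0.0387). The SFPQ effect and the NEAT1 effect differed at 0 of 5 tested members by edgeR, with 0 at an unadjusted p under 0.05 and 0 by DESeq2, where 23.5% of all miRNAs were called.

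**Figure D3:**
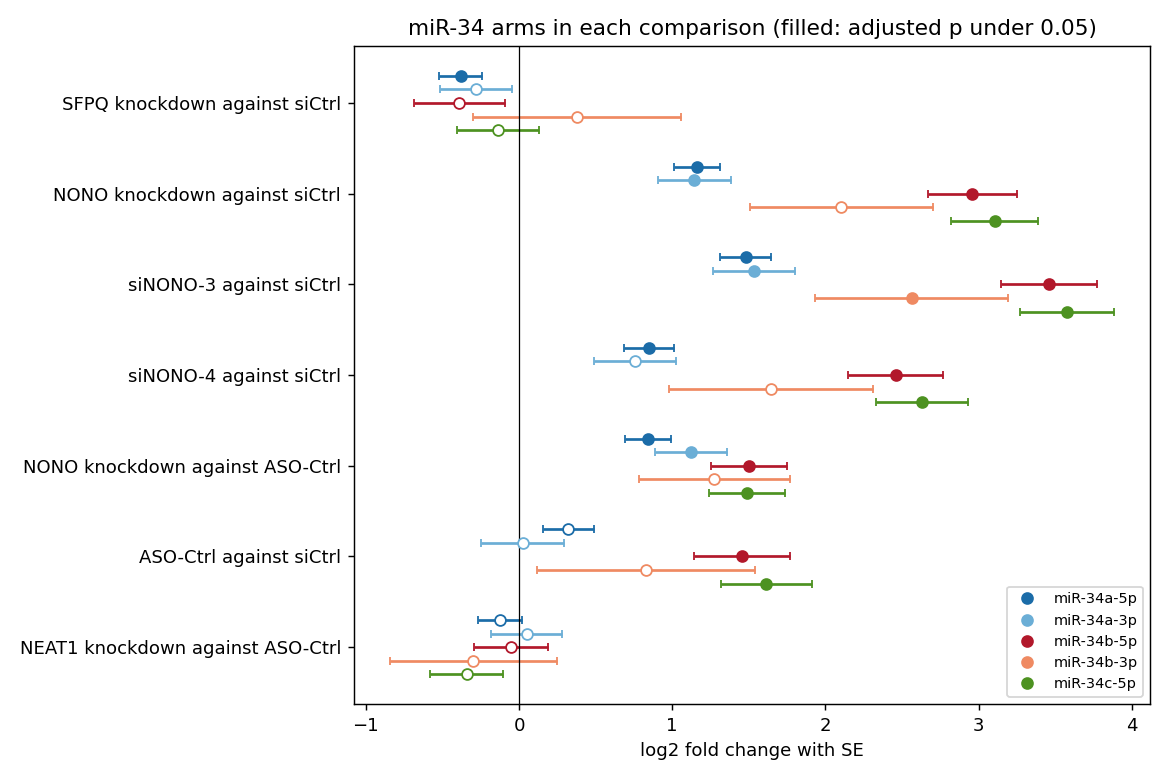
Log2 fold change with SE (horizontal axis) of the 5 tested miR-34 arms in 7 comparisons (vertical axis), filled where the adjusted p was under 0.05. The miR-34b-5p and miR-34c-5p points lie at 2.96 and 3.10 for NONO knockdown against siCtrl and at 1.502 and 1.49 against ASO-Ctrl, while those of NEAT1 knockdown lie near 0.

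The balance between the loci was compared as counts of miR-34a-5p per count of miR-34c-5p. One miR-34c-5p count was found for every 179 to 341 miR-34a-5p counts in siCtrl, for every 55.6 to 68.9 in siNONO-3 and for every 71.9 to 79.7 in siNONO-4. In ASO-Ctrl the figure was 83.5 to 138, and in ASO-NEAT1-1047, which overlapped siNONO-4, it was 76.5 to 150.5. The NONO and siCtrl ranges were apart, as were those of ASO-Ctrl and siCtrl. The siNONO-3 and siNONO-4 ranges were also apart, so an SD over their 6 libraries includes a difference between the siRNAs. The permutation test took these 6 libraries as 1 group. The log2 ratio of miR-34c-5p to miR-34a-5p was -6.10 ± 0.20 (SD, n = 6) after NONO knockdown and -8.01 ± 0.48 (n = 3) in siCtrl, a difference of 1.92 with p = 0.0238 in a two-sided exact permutation test. That is the smallest p that 6 libraries against 3 allow, and over the 16 ratio tests it became 0.381. For ASO-Ctrl against siCtrl the difference was 1.253 (exact permutation p = 0.10, the smallest that 3 against 3 allow, adjusted p = 0.533).

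The hairpins of the shared transcript were compared in the same way. One miR-34c-5p count went with 0.233 to 0.586 miR-34b-5p counts over all 24 libraries, with group means of 0.332 in siSFPQ-3 to 0.527 in ASO-NEAT1-1473, and 0.447 ± 0.141 in siCtrl beside 0.417 ± 0.037 in siNONO-3 and 0.400 ± 0.045 in siNONO-4. The siNONO-3 and siNONO-4 ranges lay within the siCtrl range.

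The arms of miR-34a had overlapping count ratios. The 5p to 3p count ratio was 152 to 273 in siCtrl, 168 to 216 in siNONO-3 and 169 to 276 in siNONO-4, overlapping ranges. Its log2 value was 7.66 ± 0.26 after NONO knockdown and 7.65 ± 0.41 in siCtrl (difference 0.0013, exact permutation p = 0.952, adjusted p = 0.952). For miR-34b the log2 ratio was 3.01 ± 0.31 after NONO knockdown and 2.05 ± 0.66 in siCtrl (difference 0.96, exact permutation p = 0.0476, adjusted p = 0.381), resting on 2 to 5 siCtrl counts of miR-34b-3p per library. The other 12 of the 16 ratio comparisons had exact permutation p-values of 0.20 or more.

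**Figure D4:**
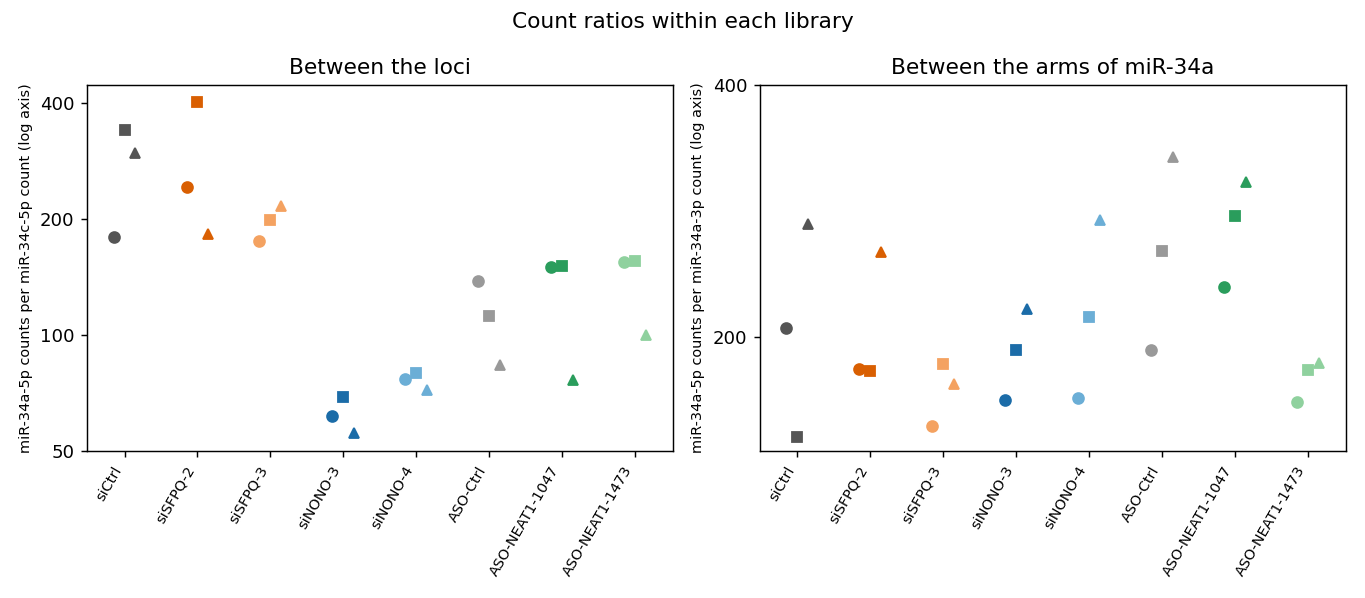
Left, miR-34a-5p counts per miR-34c-5p count, and right, miR-34a-5p counts per miR-34a-3p count, in each library by group (log axes), with symbols for the replicates. The siNONO-3 libraries (55.6 to 68.9) are lowest on the left, the siNONO-4 libraries (71.9 to 79.7) overlap 1 ASO-NEAT1-1047 library (76.5), and on the right the NONO libraries overlap siCtrl.

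The listed relatives of the family, arms of miR-449 and miR-2682, stayed low. miR-449a, which has the seed of miR-34a-5p and is known from ciliated cells, had 1 to 15 counts per library and was the only 1 of these 6 to be tested. Its log2 fold change after NONO knockdown was 0.64 ± 0.49 (adjusted p = 0.676). Of the others, miR-449b-5p had at most 4 counts, miR-449c-5p at most 9, miR-2682-5p at most 5 and miR-449c-3p at most 1, and miR-449b-3p, whose seed was found in no family member, was at 0 in all 24 libraries. No source used here states the mismatches the alignment allowed, and the separation of reads between these similar arms was not tested.

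Markers of other cell types were read beside the NONO result. The fibroblast and smooth muscle list (miR-143-3p, miR-145-5p and miR-199a-3p) had 2 of 3 members called higher with siNONO-3 and 0 of 3 with siNONO-4. Over all tested miRNAs 1.92% were called higher with siNONO-3 and 0.799% with siNONO-4. With siNONO-3, miR-143-3p rose by 1.07 ± 0.24 (log2 fold change with SE, adjusted p = 0.0169, edgeR) and miR-145-5p by 1.67 ± 0.41 (adjusted p = 0.0272, edgeR). The summed level of the list was 34283 to 35745 CPM in siNONO-3, 30010 to 34463 in siNONO-4 and 32278 to 49377 in siCtrl. Nearly all of that sum came from miR-199a-3p (23330 to 49210 CPM over all 24 libraries). The sum therefore cannot show changes in miR-143-3p or miR-145-5p. The blood cell list had 2 of 5 members tested, miR-142-3p and miR-142-5p. After NONO knockdown 0 of these 2 were called by edgeR or DESeq2. Both had an unadjusted p under 0.05 (edgeR), as did 74 of all 626 tested miRNAs. Their median log2 fold change was 0.87, against 0.01 over all tested miRNAs. The blood cell list summed to 77.1 to 118.8 CPM in siNONO-3, 93.2 to 170.7 in siNONO-4 and 50.1 to 104.6 in siCtrl. Its red cell markers miR-451a and miR-144-3p had 0 to 3 and 0 to 4 counts per library. The ciliated cell miRNAs outside the family summed to 3.31 to 7.29 CPM in siNONO-3, 3.71 to 4.21 in siNONO-4 and 3.00 to 3.99 in siCtrl. The part of these markers in the result was not tested.

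Over the 8 group means, the 391 other tested miRNAs at a mean of 10 CPM or more were ranked by how closely their centred log2 CPM profile followed that of a member, as a root mean square (RMS) difference. For miR-34a-5p, whose own profile had an RMS of 0.604, the closest were miR-4484 (0.242), miR-675-3p (0.255), miR-489-3p (0.278), miR-483-5p (0.286) and miR-5094 (0.287), beside 0.210 for its own 3p arm. For miR-34c-5p, with an RMS of 1.25, the closest outside the family was miR-675-3p at 0.716, then miR-653-3p (0.740), miR-653-5p (0.753), miR-483-5p (0.789) and miR-489-3p (0.793), while miR-34b-5p was at 0.156. These are descriptions over 8 points that share libraries and scaling.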

How the data were processed

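Per the file headers, the authors deposited raw counts from featureCounts 2.0.3, with rows for miRNA loci and spike-ins. Other tools in the submitters' processing notes are UMI-tools 1.1.1, Bowtie 1.3.0 and Trimmomatic 0.39, with hg38 as build. The collapsing of reads by molecular identifier is not given in the sources used for these counts, so intervals cover counting error only. Tables held 2883 loci and 52 spike-ins (45784 to 136178 counts per library). The locus with the largest total was kept per mature miRNA.

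Groups and replicate numbers came from the sample titles. edgeR 4.0.16 (R 4.3.3) fitted 1 term per group to all 24 libraries, with TMM scaling and filterByExpr (minimum count 10, leaving 626 miRNAs and 16 residual degrees of freedom), and its quasi-likelihood test was adjusted by Benjamini-Hochberg at 0.05. A knockdown is the mean of its 2 reagents. Replicate numbers were taken to pair groups where all 3 same-numbered pairs had deviations correlated above 0.1. Among the comparisons made of single groups this held for siNONO-4 with ASO-Ctrl (0.22 to 0.60) and for the NEAT1 ASOs with each other (0.38 to 0.54). SE was taken as log2 fold change over the root of F. Intervals on log2 fold changes are approximate. Ratios used counts plus 0.5 and exact permutation tests (scipy 1.17.1). Alternatives were RLE, library or spike-in totals, other filters, every locus, glmTreat (1.2-fold), fewer groups, a replicate block, DESeq2 1.42.0, a pseudocount of 1 and each library left out. On data simulated for NONO knockdown (626 miRNAs, 200 of them changed), 22.4% of 1.5-fold, 77.6% of 2-fold and 93.9% of 4-fold changes were recovered. In that simulation 2 unchanged miRNAs were called. The measured comparison had only 6 higher and 4 lower calls, so these rates need not hold for it.

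The members and lists were chosen with earlier results of these data known. All 6 members are named, besides the 5 miRNAs outside the family most like miR-34a-5p and miR-34c-5p, seed relatives and cell type markers. Some of the lists are not reported here. Names come from RefSeq positions (2364), hairpin and arm (265), with 23 unnamed.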

Additional observations from a re-analysis of the deposited data

Results flagged for a closer look

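The effects of SFPQ and NONO knockdown differed for all 5 tested members, by the direct contrast of the 2 knockdowns in the edgeR fit. The log2 difference was -1.54 for miR-34a-5p, -1.43 for miR-34a-3p, -3.35 for miR-34b-5p, -1.73 for miR-34b-3p and -3.24 for miR-34c-5p (SFPQ minus NONO, adjusted p of 0.000986 or less). Over all tested miRNAs 56.5% were called in this contrast and 26.8% were called lower. For each of these members except miR-34b-3p, all 6 NONO libraries lay above all 6 SFPQ libraries. The share of all miRNAs separated in this way was not computed.

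The effects of NONO knockdown, against siCtrl, and of NEAT1 knockdown, against ASO-Ctrl, differed for 3 members by the test of that difference. The log2 values were 1.29 for miR-34a-5p, 3.01 for miR-34b-5p and 3.45 for miR-34c-5p. On spike-in totals the miR-34a-5p value was 1.17 and did not pass (adjusted p = 0.0756). For miR-34b-5p and miR-34c-5p the 2 controls of this contrast themselves differed, by 1.46 and 1.61 (log2, ASO-Ctrl minus siCtrl).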

How the results depend on the processing

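The calls of miR-34a-5p, miR-34b-5p and miR-34c-5p after NONO knockdown against siCtrl held in 19 of 19 alternatives each. The single SFPQ call became 0 on library totals, on spike-in totals, with no filter, with a mean of at least 10 CPM, with every locus as a row, with glmTreat and with only the groups compared, and ranged from 0 to 1 when each library was left out. The 2 calls of ASO-Ctrl against siCtrl became 1 on spike-in totals and with no filter and 0 with only the groups compared, and ranged from 0 to 2 with each library left out. The cause was not tested.

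Some directions turned. After SFPQ knockdown library totals gave 0.060 for miR-34a-5p, 0.15 for miR-34a-3p, 0.048 for miR-34b-5p and 0.31 for miR-34c-5p, and spike-in totals 0.077 for miR-34c-5p. siSFPQ-2 alone gave 0.28 for miR-34a-5p on library totals. For the SFPQ effect against the NEAT1 effect library totals gave 0.17 for miR-34a-5p, 0.094 for miR-34a-3p and 0.10 for miR-34b-5p. For miR-34a-3p in ASO-Ctrl against siCtrl the value was -0.037 with RLE, -0.096 at 10 CPM, -0.011 with every locus, -0.017 with only the groups compared and -0.041 with DESeq2.

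With each library left out, values ranged from -0.36 to 0.29 for miR-34a-3p in ASO-Ctrl against siCtrl, from -0.15 to 0.39 for it after NEAT1 knockdown and from -0.46 to 0.0049 for it after SFPQ knockdown. After NEAT1 knockdown they ranged from -0.95 to 0.41 for miR-34b-3p and from -0.25 to 0.097 for miR-34b-5p. After SFPQ knockdown miR-34c-5p ranged from -0.29 to 0.0011. For the SFPQ effect against the NEAT1 effect the range was -0.054 to 1.304 for miR-34b-3p and -0.0084 to 0.34 for miR-34c-5p. The log2 5p to 3p ratio ranged from -0.21 to 0.21 (NONO) and -0.33 to 0.085 (SFPQ) for miR-34a, from -0.11 to 0.68 (NEAT1) for miR-34b, and from -1.18 to 0.072 (NEAT1) and -0.59 to 0.12 (SFPQ) for miR-34c.

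Of 84 same-numbered pairs of libraries, 52 had deviations correlated above 0.1 (-0.42 to 0.62), and 18 of 24 libraries correlated best with their own number, a hint from the data and not from the labels. In no comparison with siCtrl were all same-numbered pairs above 0.1. With the replicate block 5 members were called after NONO knockdown (miR-34b-3p at 2.06, adjusted p = 0.0116) instead of 4, and miR-34b-3p was also called with siNONO-3 against ASO-Ctrl (1.80, adjusted p = 0.0167, instead of 0.157). Over all miRNAs it gave 12 higher and 12 lower after NONO knockdown, against 6 and 4 without it, and 13 and 7 by DESeq2.

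Depth limits the 3p arms of miR-34b and miR-34c most, with 9 counts of miR-34b-3p and 1 of miR-34c-3p over the siCtrl libraries.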
